A study of Mus musculus with 8 samples.

Results

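The 40 genes described here build, power or switch on the motile cilium. They were taken by symbol from the deposited table of 52195 genes, and all 40 had a row. The table covers bulk RNA of lung, kidney, liver and small intestine from untreated male mice of the inbred strain C57BL/6 (C57BL/6J in the study's methods) aged 6 to 10 weeks, with 2 libraries per tissue from separate mice and 8 libraries in all. No allele, agent or transgene distinguishes the groups, which differ only in tissue. All 4 tissues were excised from each mouse, and the labels do not state which libraries share an animal. Levels are given as fragments per kilobase of exon, scaled to library size (FPKM), and the p-values measure only the spread between these libraries.

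A motile cilium is a hair-like projection that beats to move fluid, and its core, the axoneme, is a ring of microtubule doublets around a central pair. Dynein motors of the outer and inner arms slide the doublets against each other, radial spokes and the central pair regulate the stroke, and ruler proteins, the nexin-dynein regulatory complex and tektins set the spacing and bind the doublets. In the lung, multiciliated cells of the airway carry these cilia to clear mucus, whereas most cells of kidney, liver and intestine carry at most a single, non-motile primary cilium. Foxj1 is the forkhead factor that turns on the motile axoneme genes, Rfx2 and Rfx3 bind the X-box sequence in their promoters, and Mcidas starts the multiciliated cell programme upstream of Foxj1.

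The promoters are shown because 17 of the 34 members found in the RefSeq promoter table (build GRCm38.p6) hold the X-box half-site GTTGCC, or its reverse complement GGCAAC, between 250 bases before and 50 after the annotated start. This share of 50% compares with 14.1% of all 27025 genes in the table. The half-site was chosen after the sequences were seen. The full pair of half-sites, GTTNCC and GGNAAC 0 to 3 bases apart, was found in 1 of the 34 members, Ccdc151, and in 0.936% of all genes. The forkhead core TGTTTAC was found in Ak7 alone, against 4.05% of all genes. The motifs were searched on both strands and do not overlap each other in their letters, apart from the half-site that GTTNCC contains. The 3 members below have the half-site, in capitals, within the 100 bases before their first annotated start. The sequences run 5′ to 3′ on the strand of the gene.
Dynlrb2 at chr8:116504874-116504973, plus strand: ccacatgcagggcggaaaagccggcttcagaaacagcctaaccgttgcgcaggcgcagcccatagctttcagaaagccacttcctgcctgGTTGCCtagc
Tekt2 at chr4:126325689-126325788, minus strand: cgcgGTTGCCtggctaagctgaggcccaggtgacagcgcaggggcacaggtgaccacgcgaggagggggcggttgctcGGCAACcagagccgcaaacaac
Dnah10 at chr5:124724985-124725084, plus strand: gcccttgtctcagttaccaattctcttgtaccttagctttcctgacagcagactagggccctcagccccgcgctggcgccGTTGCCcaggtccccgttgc
Tekt2 holds 2 matches in this stretch, and the other 2 genes hold 1 each. In lung, Dynlrb2, a roadblock light chain of dynein, had 61.2 ± 3.85 FPKM (SD, n = 2), Tekt2 3.02 ± 0.158 and Dnah10, an inner arm heavy chain, 1.21 ± 0.258. A match is a description of the sequence and not evidence that a factor binds.

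Summed over the 40 members, the lung libraries held 591 and 600 FPKM. The sums were 18.5 and 17.3 in kidney, 19.9 and 17 in small intestine, and 3.32 and 4.10 in liver. Lung therefore stood far above the other tissues, with kidney and small intestine overlapping and liver lowest. The overlap depended on single genes. Without Tppp3 the sums were 17.7 and 16.3 in kidney and 10.6 and 6.68 in small intestine, which did not overlap. Zmynd10 (5.54 and 5.89 FPKM) and Rsph9 (4.45 and 5.41) weighed the other way in kidney, with at most 0.800 each in small intestine. The order of these tissues is therefore not fixed by the sums. By mean level 38 members were highest in lung, 1 in kidney (Zmynd10) and 1 in small intestine (Ccdc114). Both lung libraries lay above all 6 others in 36 members, and 37.4% of the 30154 genes above 0 in any library also did so. The 4 members whose lung values overlapped another tissue were Zmynd10, Ccdc114, Dnah2 and Dnah7b. These are bulk samples, in which fewer cells of a type and less RNA per cell cannot be told apart.

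**Figure D1:**
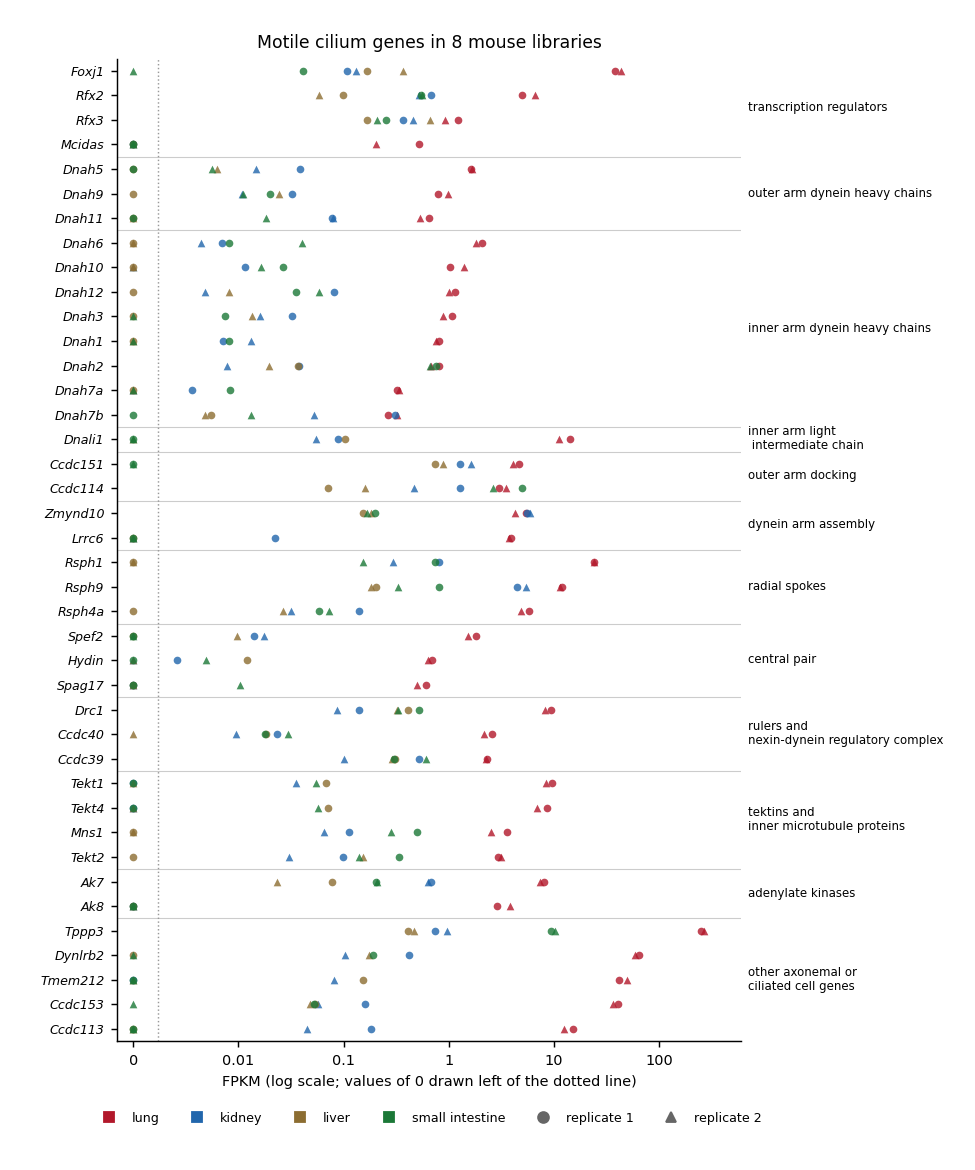
FPKM of the 40 members (rows, grouped by role and sorted by lung mean within a role) in each of the 8 libraries, on a log scale with values of 0 drawn left of the dotted line; colour gives the tissue and the symbol the replicate. The lung symbols lie furthest to the right in 36 rows, and overlap those of kidney or small intestine in Zmynd10, Ccdc114, Dnah2 and Dnah7b.

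The libraries held between 9164102 and 21444566 reads counted on genes, the kidney libraries being the deepest. Reads behind each value were recovered from the exon length and the worth of 1 read, which gave whole numbers for 37 members. The reads of Rfx2, Rsph1 and Tekt4 are less certain, since the exon length used in the table differs from the annotated one. The labelled lung tissue was checked against club cell genes of the airway: Scgb1a1, the main club cell secretory protein, had 44164 and 59746 FPKM in lung. In the other 6 libraries Scgb1a1 was at or below 0.115% of its lung mean and Scgb3a2, a second secretoglobin, between 0.0227% and 0.154%. With Cyp2f2, a cytochrome P450 that liver also expresses, the 3 club cell genes summed to between 45858 and 61432 FPKM in lung, 466 and 517 in liver, 25.1 and 55.8 in kidney, and 19.5 and 27.7 in small intestine. The summed level of the germ cell genes Prm1, Prm2, Tnp1 and Ddx4 was between 0.136 and 0.225 FPKM in lung, between 0.0767 and 0.0774 in kidney, and 0 in liver and small intestine. Genes of airway basal cells summed to between 1.54 and 1.72 FPKM in lung.

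Of the 4 regulators, Foxj1 was the most abundant in lung and Mcidas the least. Foxj1 (chromosome 11, positions 116330704 to 116335399, GRCm38) had 38.2 and 43.3 FPKM in lung, 0.107 and 0.132 in kidney, 0.0407 and 0 in small intestine, and 0.166 and 0.369 in liver. Those levels rest on 979 and 1410 reads in lung, 6 and 6 in kidney, 1 and 0 in small intestine, and 4 and 10 in liver. The lung values of Foxj1 were thus far above the others, and its highest mean outside lung, in liver, was 0.657% of the lung mean. Mcidas had 0.517 and 0.203 FPKM in lung, from 12 and 6 reads, and was at 0 in the other 6 libraries. Taking 3 reads over these 6 libraries as the floor, its lung mean was at least 22.5-fold higher, a bound that was 12.7-fold with lung replicate 2 alone and 32.3-fold with lung replicate 1 alone.

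The 2 X-box binding factors were less restricted. Rfx2 had 4.95 and 6.65 FPKM in lung, 0.681 and 0.517 in kidney, 0.542 and 0.553 in small intestine, and 0.0976 and 0.0578 in liver. Its kidney and small intestine means were 10.3% and 9.44% of the lung mean, with no overlap between lung and any other tissue. Rfx3 had 1.23 and 0.919 FPKM in lung, 0.363 and 0.455 in kidney, 0.252 and 0.208 in small intestine, and 0.168 and 0.667 in liver. Its kidney and liver means were 38.2% and 39.0% of the lung mean, and the liver libraries differed from each other more than their mean differed from kidney. Rfx3 was at 3 reads or more in all 8 libraries, with between 17 and 132 reads each.

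The dynein heavy chains, the motors themselves, were low per length in lung. The 3 outer arm chains had lung means of 1.65 ± 0.0377 FPKM for Dnah5, 0.887 ± 0.137 for Dnah9 and 0.590 ± 0.0869 for Dnah11 (SD, n = 2). Dnah5, the highest of them, had 1.62 and 1.68 FPKM in lung, 0.0388 and 0.0148 in kidney, 0 and 0.00565 in small intestine, and 0 and 0.00619 in liver. Dnah11, the chain of the proximal part of the cilium, had 0.652 and 0.529 FPKM in lung, 0.0774 and 0.0799 in kidney, 0 and 0.0183 in small intestine, and 0 and 0 in liver. The kidney level of Dnah11 rests on 24 and 20 reads and was 13.3% of its lung mean, against 1.62% for Dnah5 and 2.43% for Dnah9.

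The 8 inner arm heavy chains ranged in lung from 0.292 FPKM (Dnah7b) to 1.93 (Dnah6). Dnah6 had 2.07 and 1.80 FPKM in lung, 0.00704 and 0.00436 in kidney, 0.00806 and 0.0400 in small intestine, and 0 and 0 in liver. Dnah1, Dnah3, Dnah7a, Dnah10 and Dnah12 had lung means between 0.327 and 1.21 FPKM, and their highest means outside lung were between 1.28% and 4.41% of these. Dnah2 and Dnah7b were the inner arm chains whose values overlapped lung in another tissue. Dnah2 had 0.807 and 0.672 FPKM in lung and 0.757 and 0.661 in small intestine, but 0.0374 and 0.00772 in kidney and 0.0365 and 0.0194 in liver. The small intestine level rests on 106 and 112 reads, and the 2 tissues overlapped, with a small intestine mean of 95.8% of the lung mean.

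Dnah7b had 0.267 and 0.318 FPKM in lung, 0.310 and 0.0520 in kidney, 0 and 0.0133 in small intestine, and 0.00546 and 0.00485 in liver. Its 2 kidney libraries, with 133 and 18 reads, differed from each other more than lung differed from kidney replicate 1. Of the 31-base words in its exons, 40% also occur in other genes, 32.1% in Dnah7c. For Dnah7a the share is 54.2%, with 43.8% in Dnah7b. The division of reads among these copies is uncertain, since the handling of reads that map to several places is not given in the sources used here. The light intermediate chain of the inner arms, Dnali1, was far higher per length than any heavy chain. It had 14.3 and 11.1 FPKM in lung, 0.0874 and 0.0542 in kidney, 0 and 0 in small intestine, and 0.102 and 0 in liver.

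The docking and assembly proteins of the dynein arms differed in their second tissue. Ccdc114 and Ccdc151 anchor the outer arm to the doublet, while Zmynd10 and Lrrc6 help to fold and assemble the arms in the cytoplasm before they enter the cilium. Zmynd10 (chromosome 9, positions 107547298 to 107551319) was a lung and kidney gene, with 5.39 and 4.27 FPKM in lung, 5.54 and 5.89 in kidney, 0.201 and 0.166 in small intestine, and 0.154 and 0.182 in liver. Both kidney libraries, with 253 and 217 reads, were above both lung libraries. Of its exon bases 10.1% overlap Gm34106 on the opposite strand. Lrrc6, in contrast, had 3.88 and 3.75 FPKM in lung, 0.0224 in kidney replicate 1 and 0 in the other 5 libraries.

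Ccdc114 (chromosome 7, positions 45924072 to 45948963) was a lung and small intestine gene. It had 2.98 and 3.53 FPKM in lung, 1.27 and 0.465 in kidney, 4.99 and 2.66 in small intestine, and 0.0717 and 0.159 in liver. The small intestine libraries lay on both sides of the lung values. Ccdc151 had 4.64 and 4.07 FPKM in lung, 1.28 and 1.63 in kidney, 0 and 0 in small intestine, and 0.738 and 0.886 in liver. Its 4 kidney and liver libraries held between 17 and 71 reads each. The 2 docking genes thus had their second tissue in different places: small intestine was the highest tissue of Ccdc114 and the only tissue without a read of Ccdc151.

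The 3 radial spoke head genes were all highest in lung and differed in kidney. Rsph1 had 23.9 and 23.8 FPKM in lung, 0.801 and 0.298 in kidney, 0.734 and 0.152 in small intestine, and 0 and 0 in liver. Rsph9 (chromosome 17, positions 46122035 to 46144216) had 11.9 and 11.5 FPKM in lung, 4.45 and 5.41 in kidney, 0.800 and 0.331 in small intestine, and 0.204 and 0.181 in liver. The kidney level of Rsph9 rests on 153 and 150 reads and was 42.3% of its lung mean, against 2.30% for Rsph1 and 1.63% for Rsph4a. The lung mean of Rsph4a was 5.30 ± 0.602 FPKM (SD, n = 2).

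The central pair genes were close to absent outside lung. Spef2 had 1.80 and 1.53 FPKM in lung, 0.0141 and 0.0175 in kidney, 0 and 0 in small intestine, and 0 and 0.00977 in liver. Hydin and Spag17 had lung means of 0.660 and 0.553 FPKM, and the other 6 libraries together held 4 reads of Hydin and 1 of Spag17. Among the rulers, Ccdc39 and Ccdc40, which act together to set the axonemal repeat, had nearly the same level in lung and different levels outside it. Ccdc39 had 2.30 and 2.26 FPKM in lung, 0.526 and 0.101 in kidney, 0.301 and 0.605 in small intestine, and 0.308 and 0.286 in liver, so that all 6 other libraries held at least 13 reads. Ccdc40 had a lung mean of 2.35 ± 0.273 FPKM, and its highest mean outside lung was 0.998% of that. Of the exon bases of Ccdc39, 16.9% overlap Ttc14 on the opposite strand, and the use of strand in counting is not given in the sources used here. Drc1, of the nexin-dynein regulatory complex, had 9.39 and 8.19 FPKM in lung, 0.139 and 0.0861 in kidney, 0.518 and 0.329 in small intestine, and 0.407 and 0.325 in liver.

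Tekt1, Tekt2 and Tekt4, the tektin filaments inside the doublet, had lung means of 8.98, 3.02 and 7.73 FPKM. Tekt1 had 9.47 and 8.48 FPKM in lung, 0 and 0.0356 in kidney, 0 and 0.0544 in small intestine, and 0.0673 and 0 in liver, and no library outside lung held more than 1 read. Tekt2 reached 7.89% of its lung mean in small intestine, from 6 and 3 reads, and 20.8% of its exon bases overlap Gm12945 on the opposite strand. Mns1, another protein of the doublet lumen, had 3.59 and 2.52 FPKM in lung, 0.113 and 0.0646 in kidney, 0.498 and 0.280 in small intestine, and 0 and 0 in liver. Its small intestine level, from 25 and 17 reads, is uncertain in origin, because 53.0% of its exon bases overlap Tex9 on the opposite strand. The adenylate kinases, which keep ATP available along the axoneme, also differed. Ak7 had 8.10 and 7.32 FPKM in lung, 0.676 and 0.631 in kidney, 0.203 and 0.210 in small intestine, and 0.0778 and 0.0230 in liver. Ak8 had 2.90 and 3.82 FPKM in lung and was at 0 in the other 6 libraries, so its lung mean was at least 166-fold higher with 3 reads over these libraries as the floor.

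The most abundant member in lung was Tppp3. This gene, which encodes a tubulin polymerization-promoting protein, had 249 and 268 FPKM in lung, 0.732 and 0.969 in kidney, 9.31 and 10.3 in small intestine, and 0.413 and 0.472 in liver. The small intestine level of Tppp3 rests on 161 and 216 reads, and although it was only 3.80% of the lung mean it exceeded that of every other member in any library outside lung. Dynlrb2 had 63.9 and 58.5 FPKM in lung and between 0 and 0.419 elsewhere. Tmem212, a membrane protein of ciliated cells, Ccdc153 and Ccdc113 had lung means of 45.5, 38.4 and 13.7 FPKM, and their highest means outside lung were 0.168%, 0.283% and 0.822% of these.

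**Figure D2:**
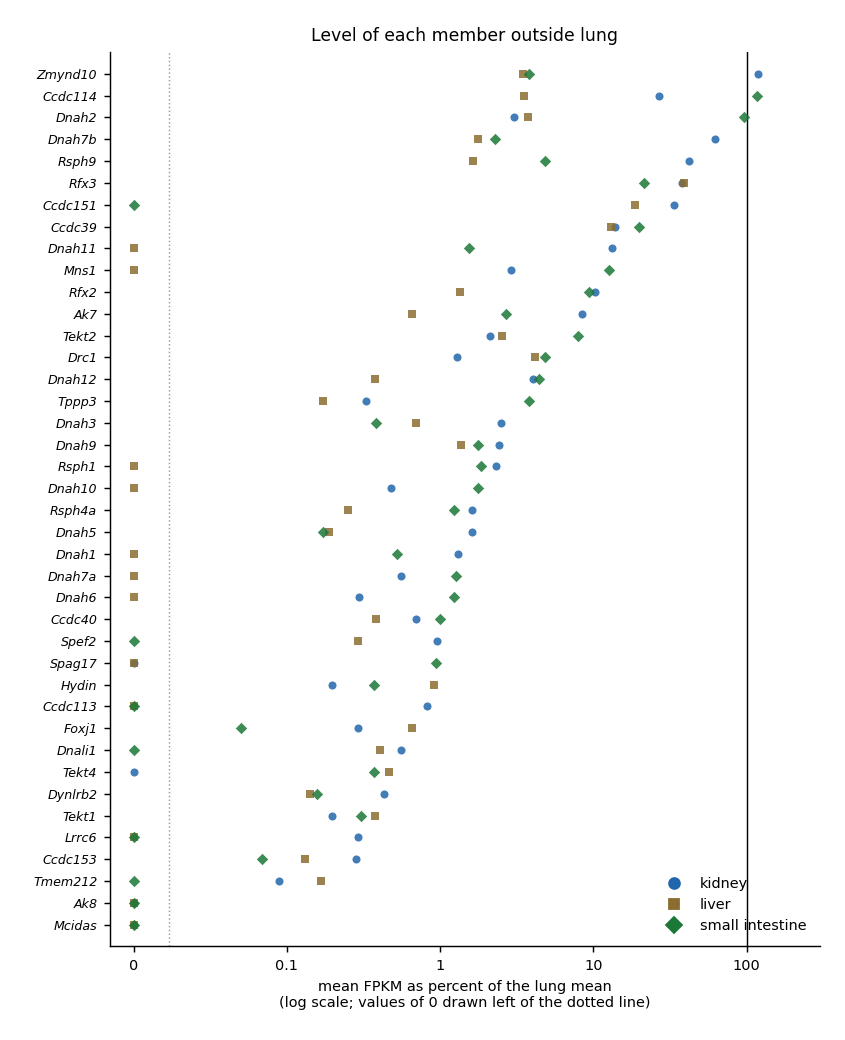
Mean FPKM of each member in kidney, liver and small intestine as a percentage of its lung mean, on a log scale with values of 0 drawn left of the dotted line and the lung mean marked by the line at 100. Zmynd10 in kidney (118%) and Ccdc114 in small intestine (117%) lie past the line, and Mcidas and Ak8 are at 0 in all 3 tissues.

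Sorted by the highest mean outside lung, 15 members were below 1% of their lung mean, 14 between 1% and 10%, 7 between 10% and 50%, and 4 above 50%. The 7 were Rsph9, Rfx3, Ccdc151, Ccdc39, Dnah11, Mns1 and Rfx2, and the 4 were Zmynd10, Ccdc114, Dnah2 and Dnah7b. The tissue with the highest level outside lung was kidney for 19 members, small intestine for 13 and liver for 6. Several of these ranks rest on very few reads. The liver rank rests on 1 read for Tekt1, Tekt4 and Tmem212 and on 2 for Hydin. Lrrc6 in kidney, and Spag17 and Dnah7a in small intestine, rest on 1 read each. Another scaling between libraries, by the median of ratios, lowers the lung values relative to the rest, and it put 13 members above 10%, 7 above 50% and 5 above their lung mean. The 5 were Zmynd10 (260%), Ccdc114 (201%), Dnah2 (165%), Dnah7b (119%) and Rfx3 (118%), and the others above 50% were Rsph9 (94.2%) and Ccdc151 (74.8%).

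A member was counted as detected in a tissue where both libraries held at least 3 reads. By this rule 19 members were detected in kidney, 14 in small intestine and 10 in liver. The kidney libraries were deeper, so that 3 reads stood for 0.140 and 0.173 FPKM in a gene with 1 kb of exons there and for between 0.265 and 0.327 in the other 2 tissues. With 0.1 FPKM asked for in both libraries instead, the counts were 12 in kidney, 13 in small intestine and 8 in liver, so the order of kidney and small intestine is not fixed by these data. In all, 23 members were detected outside lung, of which 7 were detected in all 3 other tissues, 6 in 2 and 10 in 1. The 7 were Rfx3, Ccdc114, Zmynd10, Rsph9, Ccdc39, Drc1 and Tppp3. The 17 members not detected outside lung were Mcidas, Dnah1, Dnah6, Dnah7a, Dnali1, Lrrc6, Rsph4a, Hydin, Spag17, Ccdc40, Tekt1, Tekt4, Ak8, Ccdc113, Ccdc153, Tmem212 and Dynlrb2. A member not detected had fewer than 3 reads in 1 or both libraries of each other tissue, which does not mean absent. Rsph4a, for instance, had 11 and 2 reads in kidney, and Dnah6 had 1 and 6 in small intestine. With at least 10 reads asked for in both libraries, 14 members were detected outside lung.

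The comparison of lung with the mean of the other 3 tissues was made with limma on log2(FPKM + 1), over the 16328 genes that reached 1 FPKM in 2 libraries or more. A gene was called at an adjusted p under 0.05 and a log2 difference over 1 in size. Of the 40 members 28 were tested, and 23 of these passed the filter through their lung libraries alone, so that they had to be higher in lung. The 5 that also reached the filter elsewhere were Rsph9, Zmynd10, Ccdc114, Ccdc151 and Tppp3. The 28 were called higher in lung and 0 lower in limma, with 0 lower also at an unadjusted p under 0.05, where 40.7% of the genes tested were called higher and 8.26% lower. The median log2 difference was 1.71 over the 40 members and 0.82 over the genes tested. These sets are unlike, since 12 of the 40 did not reach the filter and 23 reached it through lung alone. The 2 medians are therefore not read against each other. Under median-of-ratios scaling the median of the genes tested moved to -0.09, with 15.1% called higher and 16.9% lower, and 20 of the 24 members then tested were called higher in lung.

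Among the members of the fit, the log2 difference on the log2(FPKM + 1) scale was 6.40 ± 0.13 (SE) for Tppp3, 5.77 ± 0.17 for Dynlrb2, 5.48 ± 0.14 for Tmem212, 5.21 ± 0.13 for Ccdc153 and 5.20 ± 0.14 for Foxj1. The smallest was that of Ccdc114, 1.003 ± 0.24, with a Benjamini-Hochberg adjusted p of 0.00529 from limma. It was 0.35 under median-of-ratios scaling, with an adjusted p of 0.164 from limma, and lay between 0.88 and 1.12 when 1 library was left out, with the call lost without lung replicate 2 (0.91), kidney replicate 2 (0.90), liver replicate 1 (0.98) or small intestine replicate 2 (0.88). For Zmynd10 the difference was 1.47 ± 0.14, and 0.67 under median-of-ratios scaling. The 12 members not tested were Mcidas, Rfx3, Dnah1, Dnah2, Dnah3, Dnah7a, Dnah7b, Dnah9, Dnah11, Dnah12, Hydin and Spag17. Across every choice of 2 libraries among the 8, the two-sided exact permutation p was 0.0357, the smallest this design can give, for each of these apart from Dnah2 (exact p = 0.107) and Dnah7b (exact p = 0.0714). Among the members tested in limma it was 0.0357 for 26, with Ccdc114 (exact p = 0.25) and Zmynd10 (exact p = 0.429) above it. For the 23 members that passed the filter through lung alone, the 2 lung libraries had to rank highest, so nothing is read from their permutation p. Each member at an exact permutation p of 0.0357 had both lung libraries above all 6 others. The same held for 37.4% of the 30154 genes above 0 in any library. The p-values of the permutation tests are not adjusted. A limma-voom fit on the recovered reads, added after the data were seen and limited to genes with at least 10 reads in all, took in all 40 members and called the 40 higher in lung, with a background of 53.1%. Since 15 of the 40 had under 10 reads in the 6 other libraries together, they entered this fit through lung and had to be higher there, and the count is not read against the background.

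The same fit was used to ask which members differed among kidney, liver and small intestine, with lung left out of the contrast. In kidney, Zmynd10 (log2 difference 2.51 ± 0.14, adjusted p = 7.29e-06) and Rsph9 (2.12 ± 0.17, adjusted p = 5.12e-05) were called higher than the mean of liver and small intestine in limma. Of the genes tested, 10.7% were called higher in kidney and 10.3% lower, and Tppp3 was the member called lower (-1.10). In small intestine, Tppp3 (2.73 ± 0.13, adjusted p = 2.24e-06) and Ccdc114 (1.71 ± 0.25, adjusted p = 0.000782) were called higher in limma, against 22.3% of genes. Zmynd10 (-1.24) and Ccdc151 (-1.07) were called lower there, against 8.81% of genes. In liver 0 members were called higher in limma, where 6.78% of genes were, and Tppp3, Ccdc114, Rsph9 and Zmynd10 were called lower, where 20.8% were. At an unadjusted p under 0.05 the count of members higher in liver was also 0. The 23 members tested only through lung were below 1 FPKM in all 6 other libraries, where the log2(FPKM + 1) scale leaves no room for a difference over 1. These counts therefore concern the other 5 members, and nothing is read from them as a share of the 28.

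These counts changed with the fit, and the cause was not tested. The voom fit on recovered reads called 9 members higher in kidney (15.4% of genes), 7 in small intestine (30.8%) and 2 in liver (7.92%). The 9 in kidney were Zmynd10, Dnah7b, Dnah11, Rsph9, Ccdc151, Ak7, Dnah5, Rsph1 and Rfx2, with log2 differences from 1.49 to 4.84. The 7 in small intestine were Dnah2, Tppp3, Mns1, Ccdc114, Dnah10, Dnah6 and Rfx2, with log2 differences from 1.33 to 4.86. Those in liver were Ccdc151 (2.33) and Foxj1 (2.10). Some of these calls rest on few reads. They include Foxj1 in liver with 4 and 10, Rsph1 in kidney with 10 and 3, and Dnah10 in small intestine with 4 and 3. Dnah6 in small intestine had 1 and 6 reads, which does not meet the rule for detection. The same fit called 3 members lower in kidney (Drc1, Dnah2 and Tppp3), where 14.3% of genes were, and 3 lower in small intestine (Foxj1, Zmynd10 and Ccdc151), where 9.38% were. In liver it called 10 lower, namely Mns1, Rfx2, Dnah2, Tppp3, Ccdc114, Rsph9, Dnah11, Zmynd10, Ak7 and Rsph1, where 27.3% of genes were.

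Lung was then set against a single tissue, a comparison also added after the data were seen. Against kidney, 27 of the 28 members tested were called higher in lung and 0 lower in limma, also at an unadjusted p under 0.05, where 41.4% of genes were called higher and 8.87% lower. The call of Ccdc114 against kidney (1.22, adjusted p = 0.00648 in limma) was lost without kidney replicate 2 (0.90) and without lung replicate 2 (1.12, adjusted p = 0.053 in limma). As above, 23 of the 28 passed the filter through lung alone. The member not called against kidney was Zmynd10, with a log2 difference of -0.21 ± 0.17 between lung and kidney and an adjusted p of 0.283 from limma. Under median-of-ratios scaling it was called lower in lung than in kidney, at -1.09 with an adjusted p of 0.00223 from limma. Under that scaling Rsph9 (0.11, adjusted p = 0.734), Ccdc151 (0.30), Ccdc114 (0.52) and Ccdc39 (0.76) were also no longer called in limma, and 19 of the 24 members then tested were called higher, against 17.8% of genes higher and 17.9% lower. Against small intestine 27 were again called higher, where 30.6% of genes were called higher and 10.1% lower, and the exception was Ccdc114. Its log2 difference was -0.14 ± 0.29 with an adjusted p of 0.696 from limma. Without small intestine replicate 1 that difference was 0.22 and without replicate 2 it was -0.50, so its sign rested on the library. Under median-of-ratios scaling it was -0.69, not past the threshold of size, Mns1 (0.96) and Ccdc39 (0.65) were no longer called either, and 21 of 24 members were called higher, against 15.5% of genes higher and 16.6% lower.

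**Figure D3:**
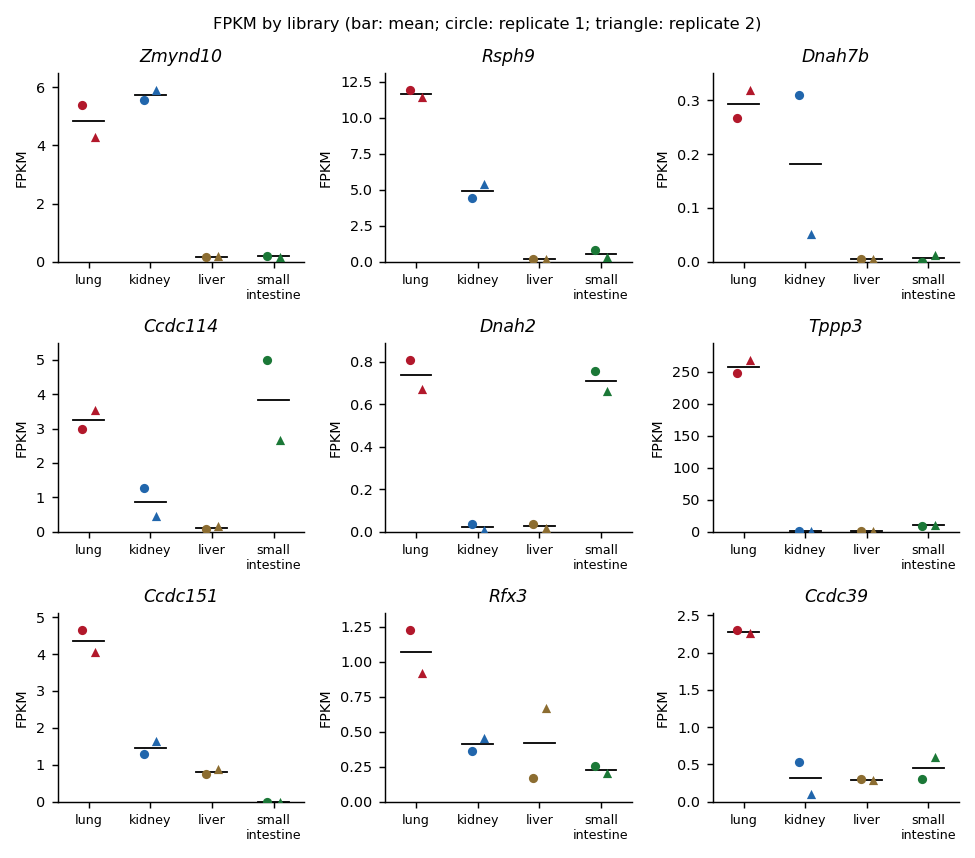
FPKM of 9 members with a level outside lung in each library, on linear axes from 0; the bar is the mean of the 2 libraries, circles are replicate 1 and triangles replicate 2. Zmynd10 and Rsph9 stand high in both kidney libraries, Ccdc114 and Dnah2 in both small intestine libraries, and the 2 kidney libraries of Dnah7b lie apart, at 0.310 and 0.0520.

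The replicates bear on these values. In lung the members differed little between libraries, with a median log2 ratio of replicate 2 to replicate 1 of -0.15 and a range from -1.35, in Mcidas, to 0.44 over 40 members. In kidney the 21 members with enough reads had a median log2 ratio of -0.81. The genes tested also had lower values in kidney replicate 2, with a median of -0.44, and this went with exon length. The median was 0.06 for genes with exons under 2 kb and -1.04 for those over 8 kb. For the members it was -0.40 under 8 kb (13 members) and -1.48 over 8 kb (8 members). Of the 8 long members 6 were lower in replicate 2, among them Dnah7b, Dnah5 and Dnah12, and 2 were higher, Dnah11 and Rfx3. Of the 13 shorter members 8 were lower in it, such as Rsph1 and Ccdc114, and 5 were higher, among them Zmynd10 and Rsph9. With either kidney library left out, the count of members called higher in kidney was again 2. The part of this length difference in the kidney values was not tested.

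Exon length also went with the level of the members in lung. Spearman's rho between exon length and mean lung FPKM was -0.82 over the 40 members and -0.03 over 16187 of the genes tested. This correlation is across genes of the same 2 libraries, and genes are not independent replicates. The 15 members with over 8 kb of exons, among them the dynein heavy chains and Hydin, had lung means between 0.292 and 1.93 FPKM. The members above 30 FPKM, namely Tppp3, Dynlrb2, Tmem212, Foxj1 and Ccdc153, all had under 3 kb.

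**Figure D4:**
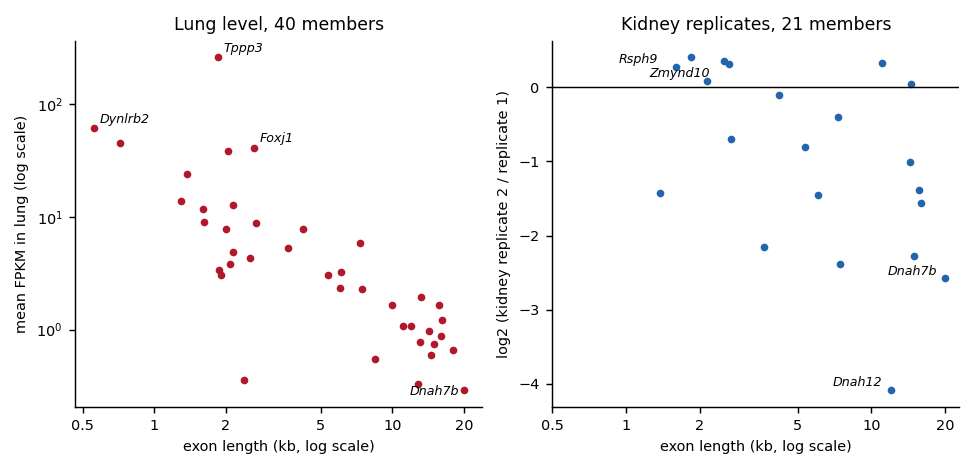
Left, mean lung FPKM of the 40 members against exon length, both on log scales, falling from 258 for Tppp3 to 0.292 for Dnah7b. Right, log2 ratio of kidney replicate 2 to replicate 1 against exon length for 21 members with at least 10 reads, where the median is -1.48 for the 8 members over 8 kb and -0.40 for the 13 under 8 kb.

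Further genes of the motile cilium, listed apart from the members, were described in the same way. Of the 60 such genes found, 52 were tested, of which 43 passed the filter through their lung libraries alone. In limma 48 were called higher in lung, against 40.7% of genes, and 0 lower, also at an unadjusted p under 0.05. The count called higher was smaller under quantile normalization, as given below. The 3 with the highest lung means were Rsph3b (32.6 and 28.2 FPKM), Fam183b (23.3 and 28.2) and Rsph3a (22.6 and 19.0). Rsph3a and Rsph3b, near-copies that encode a radial spoke protein, had kidney values of 22.2 and 25.9, and of 40.9 and 43.1 FPKM, near or above those in lung, and the division of reads between the copies is uncertain. Both were called higher in kidney in limma, together with Nme5 (log2 difference 1.36), a nucleoside diphosphate kinase of the spokes, at 1.86 and 1.75 FPKM. In small intestine Dnaaf1 (1.98), a dynein assembly factor, and Fam183b (1.90) were called higher. Dnaaf1 had 2.18 and 2.22 FPKM in lung and 3.22 and 2.97 in small intestine, with between 0 and 0.0774 elsewhere, so that, like Ccdc114 and Dnah2, it reached its lung level in small intestine.

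Of 15 listed genes of the multiciliation programme 11 were tested, 6 of which passed the filter through lung alone. Gmnc, Trp73, Ccdc78, Deup1 and Rfx1, 5 of the 11, were called higher in lung, near the 40.7% of all genes tested. Under median-of-ratios scaling 1 of 6 was, where 15.1% of genes were. The 3 with the highest lung means were Ccdc78 (22.3 and 20.5 FPKM), a deuterosome protein with at most 0.235 outside lung, E2f5 (10.6 and 11.8) and Rfx1 (4.49 and 5.61). E2f5, a partner of Mcidas, was called higher in kidney than in liver and small intestine (log2 difference 1.61), at 14.8 and 14.2 FPKM. Myb (1.88), Plk4 (1.05) and Rfx1 (1.05) were called higher in small intestine.

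For comparison, 47 genes of the primary cilium and of intraflagellar transport, which most cell types use, were taken as a list. Of the 45 tested, 11 passed the filter through lung alone, and 33 were called higher in lung and 0 lower in limma, with 1 lower at an unadjusted p under 0.05, against 40.7% of genes higher and 8.26% lower. Under median-of-ratios scaling 5 of 41 were called higher, where 15.1% of genes were. The 3 with the highest lung means were Ift20 (38.6 and 46.2 FPKM), Arl3 (35.9 and 37.2) and Ift43 (21.6 and 21.5). Against kidney alone 7 were called higher in lung and 1, Pkhd1, a protein of the renal primary cilium, was called lower, where 41.4% of genes were called higher and 8.87% lower. Kidney had 19 genes of this list called higher than liver and small intestine, where 10.7% of the genes tested were, among them Pkhd1, Arl3, Ift57, Ift74, Ift81, Kif3a, Bbs2 and Bbs7. Small intestine had Ift20 (1.52).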

How the data were processed

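Bulk RNA was measured in 8 libraries, and each column was matched by name to the sample whose label gives its tissue. By the study's methods, polyadenylated RNA was sequenced, reads were selected by index and mapped to the Ensembl mouse genome (GRCm38) with STAR 2.5.3a, and the authors deposited FPKM values computed in DESeq2. The counting program, its use of strand and its treatment of multiply mapped reads are not given in the sources used here. FPKM is relative, so very abundant transcripts in a library lower its other values.

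Reads were recovered with exon lengths of GENCODE M21, in which 51844 of 52195 symbols (99.3%) had a single match. Between 94.5% and 96.1% of low values per library, up to 50 reads, were whole within 0.02 reads. Floors of 3 reads cover counting error only.

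Differences were tested with limma 3.58.1 (lmFit, eBayes with trend) in R 4.3.3 on log2(FPKM + 1), all 8 libraries in 1 fit, with Benjamini-Hochberg adjustment over the 16328 genes that reached 1 FPKM in 2 libraries or more. A fold change on this scale understates the change of low genes. Tested on simulated data for the lung comparison, the step recovered 25 of 200 genes changed 2-fold, with 7 false calls in 14801 genes tested, and 198 of 200 changed 4-fold, with 9 false calls in 14782. Other values were computed in Python 3.11.15 (pandas 2.3.3, scipy 1.17.1) and plotted with matplotlib 3.10.9. Alternatives changed the pseudocount, filter, scaling, trend, block, test and libraries.

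The members and lists were chosen with earlier results of these data known. Values in each library are given for the regulators, the highest member of each role, members highest outside lung and those detected elsewhere above 10% of their lung mean. From the further lists, the 3 highest in lung and those called higher in another tissue or lower in lung are named, apart from some of the primary cilium genes higher in kidney. Dnai1, Dnai2, Spag6l and Cfap47 were not analysed here. The results of 2 listed genes are not reported here.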

Additional observations from a re-analysis of the deposited data

How the results depend on the processing

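Of 444 recalculations of a single member's lung difference, 428 kept the call, 16 lost it and 0 reversed. The 16 fell on 8 members: Ccdc114, Ccdc151, Zmynd10 and Ccdc39 lost it under median-of-ratios scaling and, with Dnah5, Dnah6, Dnah10 and Spef2, under quantile normalization, and Ccdc114 lost it in 4 cases of a library left out. The number of members called higher in lung was between 27 and 28 with a library left out. Members called higher in kidney numbered 6 with a pseudocount of 0.1, 7 with limma-voom on recovered reads and 9 with voom over genes of at least 10 reads, against 2. Those in small intestine numbered 6 and 7 with the 2 voom fits, against 2, and those in liver 2, 2 and 2 with that pseudocount and the voom fits, against 0. The cause was not tested. Members detected outside lung numbered 14 with at least 10 reads, 16 with 0.1 FPKM or more in both libraries and 31 with at least 3 reads in 1 or both libraries, against 23. The median log2 difference of the members in lung was 3.93 with a pseudocount of 0.1, 1.09 under median-of-ratios scaling, 0.95 under quantile normalization and 6.61 with voom over genes of at least 10 reads, against 1.71. It ranged from 1.62 to 1.79 with a library left out.

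Further motile cilium genes called higher in lung numbered 31 under quantile normalization, against 48. Genes of the multiciliation programme numbered 10 with a pseudocount of 0.1, 1 under each of median-of-ratios scaling and quantile normalization, and 10 and 12 with the voom fits, against 5. Primary cilium genes numbered 5 under each of the 2 scalings, against 33. Deviations of samples with the same replicate number in different tissues had correlations between -0.22 and 0.05. With 2 libraries per tissue these deviations are mirror images, so a negative value means that opposite numbers deviated together. The check cannot show whether libraries share a mouse, and the samples were treated as unpaired. Whether a number marks 1 mouse is not stated in the labels. A fit with the replicate block called 28 members higher in lung, 2 in kidney, 2 in small intestine and 0 in liver, as without it. With 2 libraries per tissue, and members at fewer than 3 reads outside lung, small differences between kidney, liver and small intestine are not detectable at this depth.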

Other observations

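Markers of other cells that border the airway or the other epithelia were measured beside the members. Genes of cardiac muscle (Myh6, Myl7 and Tnnt2), which lines the pulmonary veins of mice, summed to between 133 and 134 FPKM in lung and to at most 8.88 in any other library. Tuft cell genes (Dclk1, Trpm5 and Pou2f3), which mark a chemosensory epithelial cell, summed to between 2.45 and 2.90 FPKM in small intestine and between 0.835 and 1.08 in lung. Bile duct cell genes (Krt19, Krt7 and Sox9) summed to between 2.24 and 3.17 FPKM in liver, 8.08 and 10.9 in kidney, 105 and 119 in lung, and 358 and 366 in small intestine. Mesothelial genes (Msln, Upk3b and Wt1) summed to between 50.2 and 80.1 in lung.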
